A study of Mus musculus with 18 samples.

Results

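Open chromatin was described at the loci of 10 genes that mark the large vessel, arterial, venous and lymphatic endothelium of the lung: the arterial genes Gja4, Gja5 and Bmx, the large vessel genes Edn1 and Vegfd, the venous genes Nr2f2 and Slc6a2, the systemic venous gene Col15a1 and the lymphatic genes Prox1 and Pdpn. Overlapping peaks of 18 ATAC-seq lists were joined into regions, keeping those that 2 or more lists share. A region belonged to a gene when the gene had the RefSeq transcription start site (TSS) nearest to its midpoint, or when it lay within the gene body. This gave 43 regions of the 47338 regions in all, that is 0.0908%.

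Each list came from the lung endothelial cells (ECs) of a mouse of the FVB strain that carried the Col1α1-GFP transgene, which labels collagen-producing fibroblasts and was shared by every group. ECs were sorted as CD45- EpCAM- GFP- CD31+ cells. The 5 Young Sham and 4 Young Bleo mice were 2 months of age, and the 4 Aged Sham and 5 Aged Bleo mice 18 months. Intratracheal PBS (Sham) or about 1 U/kg bleomycin (Bleo), an agent that injures the lung and causes fibrosis, was given 30 days before the harvest. The labels do not give the sex of the mice, and the study used females and males, which bears on Bmx and Vegfd on the X chromosome. The sequencing lane was read from the file names: all Aged Bleo lists and Aged Sham 4 were in lane 6, Aged Sham 1 to 3 and Young Bleo 1 to 3 in lane 7, and Young Bleo 4 and all Young Sham lists in lane 8. No lane held both Young Sham and an aged group, or both Young Bleo and Aged Bleo, so age and lane cannot be told apart between them. Young Bleo and Young Sham shared a lane only through Young Bleo 4, and Aged Bleo and Aged Sham only through Aged Sham 4. Lane therefore also bears on the comparisons of bleomycin with sham.

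Blood vessels of the lung branch from arteries into capillaries and drain into veins, and a separate network of lymphatic vessels collects fluid. Arterial ECs are known for Notch signalling and for connexins that couple cells through gap junctions, venous ECs for the nuclear receptor COUP-TFII, which Nr2f2 encodes and which opposes the arterial program, and lymphatic ECs for the transcription factor PROX1, which specifies them. Most lung ECs are capillary, so cells of these larger vessels are a minority of a sorted sample. In a bulk sample, fewer cells of a type and less open chromatin per cell cannot be told apart.

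The lists give, for each peak, its fold enrichment over the local background and its -log10 p, from which the whole number of fragments at the summit was solved (termed summit fragments). The lists held 21050 to 40883 peaks. The weakest peak of a list rested on 7 to 10 summit fragments and the median peak on 25 to 33, so that a region without a peak may have been open below this depth. Background coverage, a measure of depth, was 1.26 to 1.78 fragments in Young Sham, 1.498 to 1.73 in Young Bleo, 1.02 to 1.44 in Aged Sham and 1.06 to 1.60 in Aged Bleo. The 3 shortest lists, Aged Bleo 4, Aged Sham 3 and Aged Sham 1, called 43.0%, 52.6% and 53.5% of all regions, against 54.9% to 80.4% in the others. Promoters of 5 of 9 pan-endothelial markers had a peak in all 18 lists, whereas none of 5 leukocyte markers, 1 of 5 fibroblast markers, 1 of 5 mural markers and 1 of 5 markers of type 1 epithelium had one.

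The sequences around the summits of 8 regions are shown first, as examples of the regions that carry the differences described below: 7 of them are among the 9 that passed the test of presence in at least 1 comparison, and Nr2f2 -1 kb differed in strength. Regions are named by gene and by the distance of their midpoint from its nearest TSS, positive in the direction of transcription. Each sequence is 200 bases of the plus strand of the mm10 reference (GRCm38.p6, strain C57BL/6J, so FVB bases may differ), written 5′ to 3′. Capitals mark matches on either strand to CAGGAAG (the core of the ETS factor ERG), AACAAT (SOX factors), TGGGAA (RBPJ, the nuclear effector of Notch), AGGTCA (nuclear receptors), TGTTTAC (forkhead factors) and TGACTCA (AP-1).
Gja4 +6.9 kb, chr4:127307041-127307240: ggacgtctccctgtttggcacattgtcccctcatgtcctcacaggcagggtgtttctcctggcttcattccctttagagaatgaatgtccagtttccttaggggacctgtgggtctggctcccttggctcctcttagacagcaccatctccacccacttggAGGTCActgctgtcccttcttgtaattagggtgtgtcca
Gja5 +12 kb, chr3:97044321-97044520: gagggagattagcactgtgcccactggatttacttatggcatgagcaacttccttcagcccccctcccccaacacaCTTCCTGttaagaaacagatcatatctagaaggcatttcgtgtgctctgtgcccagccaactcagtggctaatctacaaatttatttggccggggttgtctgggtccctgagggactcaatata
Bmx +24.6 kb, chrX:164233468-164233667: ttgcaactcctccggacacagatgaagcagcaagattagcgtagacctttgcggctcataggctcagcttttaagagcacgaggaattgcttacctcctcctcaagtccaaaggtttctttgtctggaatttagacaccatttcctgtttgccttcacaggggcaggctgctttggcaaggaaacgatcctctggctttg
Edn1 +111.4 kb, chr13:42412734-42412933: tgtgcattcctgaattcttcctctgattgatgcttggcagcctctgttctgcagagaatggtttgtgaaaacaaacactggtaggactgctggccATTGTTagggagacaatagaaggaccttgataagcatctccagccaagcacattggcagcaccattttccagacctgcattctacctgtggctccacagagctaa
Nr2f2 +9.5 kb, chr7:70350919-70351118: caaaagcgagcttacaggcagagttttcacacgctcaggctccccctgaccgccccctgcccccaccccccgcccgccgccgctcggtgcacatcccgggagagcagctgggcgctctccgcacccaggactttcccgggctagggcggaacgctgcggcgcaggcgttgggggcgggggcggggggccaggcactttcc
Nr2f2 -1 kb, chr7:70361780-70361979: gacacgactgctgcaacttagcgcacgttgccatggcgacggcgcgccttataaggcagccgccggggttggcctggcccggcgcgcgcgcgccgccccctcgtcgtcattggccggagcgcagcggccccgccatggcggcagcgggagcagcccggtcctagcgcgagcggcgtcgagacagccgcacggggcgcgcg
Col15a1 -2 kb, chr4:47205970-47206169: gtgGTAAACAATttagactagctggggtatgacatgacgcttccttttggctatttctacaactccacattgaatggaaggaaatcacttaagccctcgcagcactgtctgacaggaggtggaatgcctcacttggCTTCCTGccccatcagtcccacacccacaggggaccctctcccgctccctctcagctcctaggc
Prox1 -11.1 kb, chr1:190181798-190181997: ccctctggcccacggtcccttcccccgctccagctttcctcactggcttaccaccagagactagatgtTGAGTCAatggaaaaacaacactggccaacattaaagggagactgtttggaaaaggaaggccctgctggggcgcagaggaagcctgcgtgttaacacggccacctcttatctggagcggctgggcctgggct

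Gja4 +6.9 kb held AGGTCA, Gja5 +12 kb held CAGGAAG and Prox1 -11.1 kb held TGACTCA, each read on the minus strand except AGGTCA. Edn1 +111.4 kb held AACAAT on the minus strand. In Col15a1 -2 kb the forkhead and SOX matches overlapped each other at the 5′ end, and CAGGAAG lay apart from them. The windows of Bmx +24.6 kb, Nr2f2 +9.5 kb and Nr2f2 -1 kb held none of the 6 motifs. Of the 43 member windows, 27 held at least 1 motif. AACAAT was in 25.6% of member windows and 12.8% of all windows, TGACTCA in 14% and 6.60%, and TGTTTAC in 9.30% and 4.44%. CAGGAAG was in 10 of 43 member windows and 9449 of 47338 windows in all. TGGGAA was in 14% of member windows and 19.5% of all windows, and AGGTCA in 6.98% and 12.4%. Most members lack a peak in some list. Over all regions of that kind, the share was 15.7% for AACAAT, 7.61% for TGACTCA and 4.92% for TGTTTAC. It was 21.9% for CAGGAAG, 21.1% for TGGGAA and 13.9% for AGGTCA. The median GC content was 53.0% in member windows and in all windows. These shares are descriptions, and a match is not evidence of binding.

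The regions lay mostly away from promoters. Placed by their midpoints, 20 of the 43 regions were intergenic (46.5%, against 34.9% of all regions), 15 intronic (34.9% against 36.9%), 5 in promoters (11.6% against 21.3%), 2 in untranslated exons and 1 in a coding exon. A peak in all 18 lists was found for 7 member regions, 16.3% of them, whereas 36.8% of all regions had one. Col15a1 had 12 regions, Gja4 6, Gja5, Edn1 and Nr2f2 5 each, Bmx 4, Prox1 3, and Slc6a2, Vegfd and Pdpn 1 each.

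**Figure D1:**
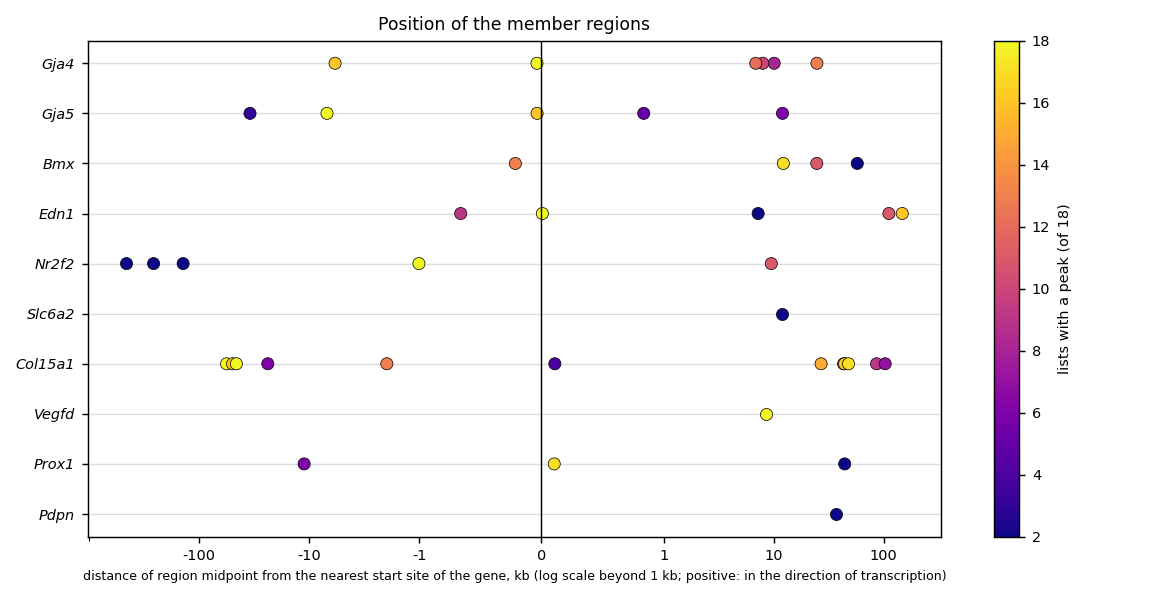
Distance of the midpoint of each of the 43 regions from the nearest TSS of its gene in kb (linear up to 1 kb, log scale beyond; positive in the direction of transcription), coloured by the number of the 18 lists with a peak. Gja4 and Edn1 had a region at the TSS with a peak in all 18 lists, whereas Slc6a2 and Pdpn had 1 region each, with a peak in 2 lists.

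Promoters of the arterial and large vessel genes differed in how often they were called, from every list to none. The Gja4 promoter (Gja4 -36 bp, chr4:127313754-127314397) had a peak in every list. Its summit held 117 to 167 fragments in Young Sham, 139 to 210 in Young Bleo, 61 to 123 in Aged Sham and 43 to 226 in Aged Bleo, with the fewest in Aged Bleo 4, the shortest list. The Edn1 promoter (Edn1 +8 bp, chr13:42301128-42301840), at the gene for the precursor of the vasoconstrictor endothelin, was also called in every list, with 58 to 114 summit fragments in Young Sham, 99 to 174 in Young Bleo, 51 to 108 in Aged Sham and 39 to 197 in Aged Bleo. The promoter of Gja5 (Gja5 -35 bp, chr3:97032132-97032602), which encodes an arterial connexin as Gja4 does, was a weak region with 9 to 35 summit fragments in 16 lists, and was not called in Young Sham 3 and Aged Bleo 4. The promoter of Bmx (Bmx -213 bp, chrX:164258037-164258775), a Tec family tyrosine kinase of arterial ECs, was called in 13 lists with 10 to 26 summit fragments, in 4 of 5 Young Sham, 4 of 4 Young Bleo, 2 of 4 Aged Sham and 3 of 5 Aged Bleo lists. No list had a peak that overlapped the promoter (a window reaching 1000 bp before and 100 bp past a TSS) of Vegfd, a growth factor for lymphatic and blood vessels.

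Promoters of the venous and lymphatic genes also ranged from a peak in every list to none. No list had a peak that overlapped the promoter of Slc6a2, the noradrenaline transporter, or of Pdpn, the lymphatic glycoprotein podoplanin. For Col15a1, a basement membrane collagen, 3 lists had a peak that overlapped the promoter. Prox1 +105 bp (chr1:190170422-190171023), whose midpoint lies in the untranslated 5′ exon just past the promoter window, was called in every list except Aged Bleo 4, so that 17 lists had a peak overlapping the promoter of the longer Prox1 transcript. It held 26 to 44 summit fragments in Young Sham, 35 to 44 in Young Bleo, 13 to 20 in Aged Sham and 14 to 23 in the 4 Aged Bleo lists, so that young and aged lists did not overlap in this count, which is not scaled for depth. Divided by the background coverage of its list, the count was 17.4 to 25.9 in Young Sham, 20.8 to 25.4 in Young Bleo, 11.2 to 18.6 in Aged Sham and 11.9 to 20.2 in Aged Bleo, and on this scale young and aged lists overlapped. Nr2f2 -1 kb (chr7:70361009-70362185), which overlaps the promoter of the shorter transcript and lies in an intron of the longer one, was called in every list with 159 to 301 summit fragments, and the promoter of the longer transcript had no peak.

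**Figure D2:**
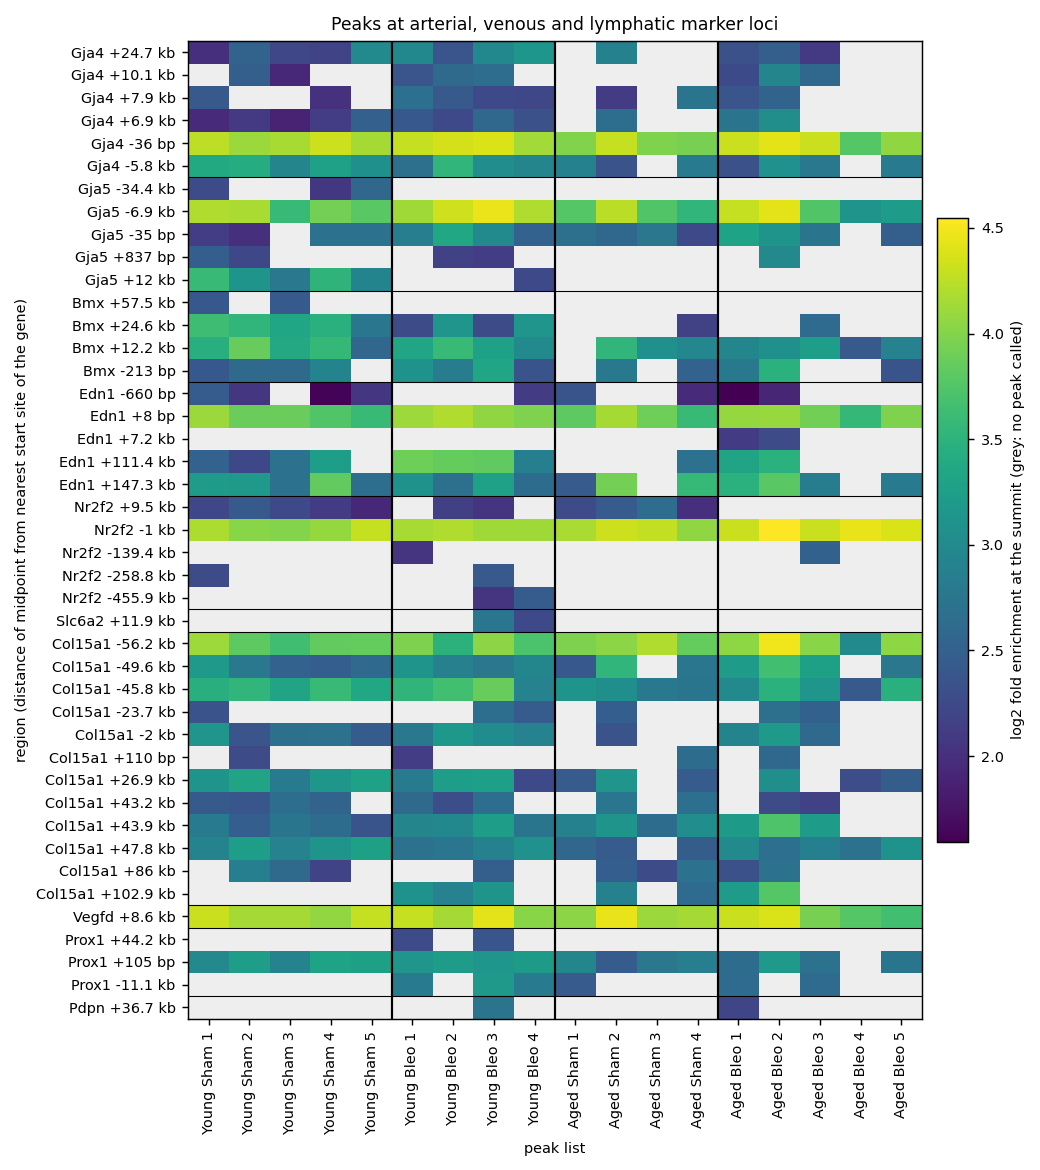
Log2 fold enrichment at the summit of each of the 43 regions (rows, by gene) in the 18 lists (columns, by group), with grey where no peak was called. The 7 regions with a peak in all 18 lists form unbroken rows, and Aged Bleo 4 and Aged Sham 3 have the most grey cells.

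The number of member regions with a peak was 24 to 32 in Young Sham (28.4 ± 3.05, SD, n = 5), 28 to 36 in Young Bleo (30.8 ± 3.59, n = 4), 13 to 26 in Aged Sham (20.8 ± 6.40, n = 4) and 10 to 31 in Aged Bleo (21.6 ± 8.62, n = 5). As shares of the members, these were 55.8% to 74.4% in Young Sham, 65.1% to 83.7% in Young Bleo, 30.2% to 60.5% in Aged Sham and 23.3% to 72.1% in Aged Bleo. Of all regions, the same lists called 61.7% to 77.7%, 69.9% to 80.2%, 52.6% to 65.5% and 43.0% to 80.4%. Low values in aged lists were thus also seen over all regions. The lowest member counts were those of Aged Bleo 4 and Aged Sham 3, whose lists were also the shortest. Over the 7 comparisons, no region of the 47338 passed Benjamini-Hochberg adjustment of Fisher's exact test, and the smallest adjusted p of a member region was 0.414. The calls below use an unadjusted two-sided Fisher's exact p of at most 0.05 and are read against the share of all regions called by the same rule. A region with a peak in all 18 lists cannot be called or differ. Of the members 16.3% were such regions, against 36.8% of all regions, so a larger part of the members could be called. In the pooled comparisons, a region with peaks on a single side was kept through that side and could be called in a single direction only. Comparisons with Young Sham share their control lists.

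Presence differed with age at 6 regions. In the 9 aged against the 9 young lists, 6 of 43 member regions were called less often (14%, against 4.87% of all regions) and 0 more often (0.127% of all regions). They were Bmx +24.6 kb, Gja4 +6.9 kb, Gja4 +24.7 kb, Gja5 +12 kb, Edn1 +111.4 kb and Col15a1 -2 kb, so 5 of the 6 belonged to arterial or large vessel genes, which hold 21 of the 43 member regions. No test compared these genes with the other members. The same 6 regions were called with any single list left out. Without the 3 shortest lists, all of them aged, 3 remained (Bmx +24.6 kb, Gja4 +6.9 kb and Gja5 +12 kb), against 3.22% of all regions. With the same number of peaks taken from each list, 2 regions were called less often, Bmx +24.6 kb, the only one of the 6, and Prox1 +105 bp, against 0.594% of all regions. A -log10 q of at least 5, a fold enrichment of at least 5 and peaks covering 50% of the region each gave 3 member regions called less often in aged lists (6.98%), among them Gja5 +12 kb and Bmx +24.6 kb throughout, against 5.09%, 3.57% and 8.29% of all regions, so that the members' share was below that of all regions under the last of these.

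Bmx +24.6 kb (chrX:164233364-164233803), in an intron, had the smallest p of the member regions with age. Its summit fragments in Young Sham 1 to 5 were 27, 31, 27, 28 and 15, and in Young Bleo 1 to 4 they were 12, 21, 12 and 23. Of the aged lists, Aged Sham 4 called it with 10 fragments and Aged Bleo 3 with 12. Every young list thus called the region and 2 of 9 aged lists did so (p = 0.00226, Fisher's exact test, adjusted p = 0.414). In lane 7, all 3 Young Bleo and 0 of 3 Aged Sham lists called it. These groups also differ in treatment, and Aged Sham 1 and 3 are among the 3 shortest lists. With the same number of peaks per list the p was 0.0294, and without the 3 shortest lists it was 0.0110. By contrast, the neighbouring intronic region Bmx +12.2 kb was called in every list except Aged Sham 1, with 13 to 39 summit fragments in young and 10 to 24 in aged lists.

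Gja5 +12 kb (chr3:97044258-97044572), in the intron of Gja5, followed the lane. Young Sham 1 to 5 called it with 27, 24, 18, 30 and 17 summit fragments, Young Bleo 4 called it with 12, and no other list called it. These are the 6 lists of lane 8 and no list of lanes 6 and 7, so that lane and group cannot be told apart for this region. The difference was 6 of 9 young against 0 of 9 aged lists (p = 0.00905, Fisher's exact test). As the region was kept through young lists alone, it could only be called less often in aged lists. This holds also for its calls in Aged Sham and in Aged Bleo against Young Sham. In lane 7, neither the Young Bleo nor the Aged Sham lists called it. The weak region Gja5 -34.4 kb was likewise called only in 3 Young Sham lists, with 10 to 13 fragments, and Bmx +57.5 kb only in 2 Young Sham lists, with 11 and 14.

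The regions downstream of Gja4 were weak, and the called lists among the aged were few. Gja4 +6.9 kb (chr4:127306973-127307366) had 16 to 21 summit fragments in Young Sham, 22 to 32 in Young Bleo, 20 in Aged Sham 2, and 34 and 46 in Aged Bleo 1 and 2, and no peak in the other 6 aged lists (p = 0.00905, Fisher's exact test). Its direction turned under 2 alternatives, to 22.2 percentage points higher in aged than in young lists with the same number of peaks per list (p = 0.471, Fisher's exact test) and to 5.0 points higher in Aged Sham than in Young Sham with a fold enrichment of at least 5 (p = 1.0). Where it was called in Aged Bleo, it therefore held more fragments than in any young list. Gja4 +24.7 kb (chr4:127289074-127289620) had 8 to 18 fragments in Young Sham and 12 to 26 in Young Bleo, and 8 to 15 in the 4 aged lists that called it (p = 0.0294, Fisher's exact test). Its lowest values lie at the weakest peaks of the lists. Aged Bleo 1 and 2, the longest aged lists, called all 6 Gja4 regions, whereas Aged Sham 3 and Aged Bleo 4 called 1, the promoter.

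Edn1 +111.4 kb (chr13:42412600-42413069) was called by 8 of 9 young and 3 of 9 aged lists (p = 0.0498, Fisher's exact test). It had 12, 12, 17 and 24 summit fragments in Young Sham 1 to 4, and no peak in Young Sham 5. Young Bleo 1 to 4 had 39, 35, 37 and 19, Aged Sham 4 had 15, and Aged Bleo 1 and 2 had 25 and 23. The 3 Young Bleo lists of lane 7 thus stood above every other list, and the fourth, of lane 8, lay within the Young Sham range. Its neighbour Edn1 +147.3 kb was called in 16 lists, and the shoulder Edn1 -660 bp of the promoter in 9, with 19 to 41 summit fragments at a fold enrichment of only 3.02 to 5.48.

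Col15a1 -2 kb (chr4:47205848-47206247), just upstream of the gene, had 12 to 24 summit fragments in Young Sham, 20 to 27 in Young Bleo, 10 in Aged Sham 2, and 21, 22 and 12 in Aged Bleo 1 to 3 (p = 0.0294, Fisher's exact test of 9 against 9). All 9 young lists called it and 4 of 9 aged lists did so. The 6 regions in the body of the gene between +26.9 and +102.9 kb were called in 7 to 17 lists, and none of them passed the test with age.

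**Figure D3:**
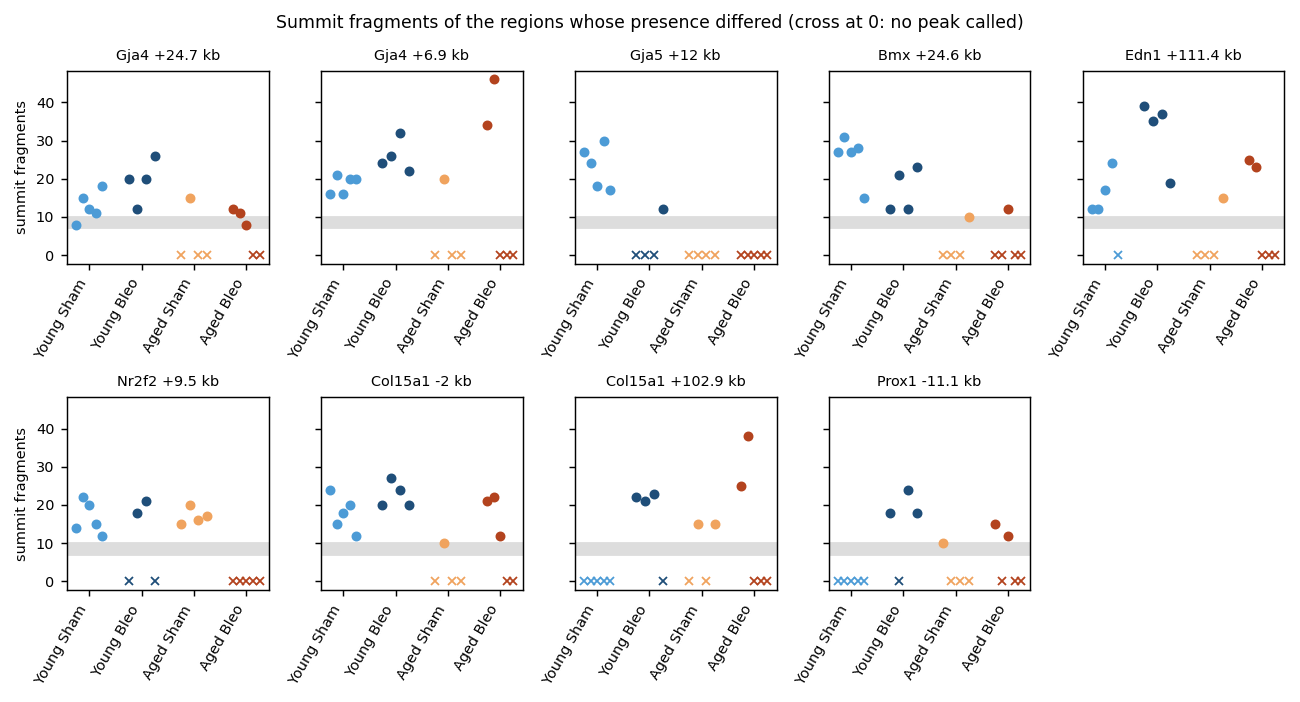
Summit fragments in each list (dots, by group; a cross at 0 marks a list with no peak) for the 9 regions whose presence passed Fisher's exact test in at least 1 comparison, with the grey band spanning the weakest peak of each list, 7 to 10 fragments. Bmx +24.6 kb and Gja5 +12 kb are filled in Young Sham and nearly empty in the aged groups, and Nr2f2 +9.5 kb is empty in Aged Bleo.

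In the absence of injury, 5 member regions were called less often in Aged Sham than in Young Sham (11.6%, against 4.90% of all regions) and 0 more often (0.264% of all regions). They were Gja4 +24.7 kb, Gja4 +6.9 kb, Gja5 +12 kb, Bmx +24.6 kb and Col15a1 -2 kb. For Gja5 +12 kb, 0 of 4 against 5 of 5 lists gave the smallest p that these group sizes allow, 0.00794. The other 4 stood at 1 of 4 against 5 of 5 lists (p = 0.0476 each, Fisher's exact test), and this p rises to 0.143 when any Young Sham list, and to 0.107 when any of the 3 Aged Sham lists without the peak, is left out.

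Bleomycin in young mice gave calls in both directions. Compared with Young Sham, 2 member regions were called more often in Young Bleo (4.65%, against 3.98% of all regions), and 1, Gja5 +12 kb, less often (2.33%, against 1.96%), shares close to those of all regions. Prox1 -11.1 kb (chr1:190181681-190182155), upstream of Prox1 in an intron of the antisense gene Prox1os, had no peak in any Young Sham list and 18, 24 and 18 summit fragments in Young Bleo 1, 3 and 4. It was also called in Aged Sham 1 with 10, Aged Bleo 1 with 15 and Aged Bleo 3 with 12 fragments. Col15a1 +102.9 kb (chr4:47310782-47311123), in an intron of Col15a1 and nearest to the TSS of Tgfbr1, which encodes a TGF-beta receptor, had no peak in Young Sham and 22, 21 and 23 fragments in Young Bleo 1 to 3. It was absent from every list of lane 8, Young Bleo 4 included, and present in 2 Aged Sham lists with 15 each and in Aged Bleo 1 and 2 with 25 and 38. Both stood at 3 of 4 against 0 of 5 lists (p = 0.0476, Fisher's exact test), and each call is lost when any Young Sham list (p = 0.143, Fisher's exact test) or any Young Bleo list with the peak (p = 0.107) is left out, as is that of Gja5 +12 kb without any Young Sham list or any of Young Bleo 1 to 3.

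Young Bleo also held rare calls at the venous and lymphatic genes. The single Slc6a2 region, Slc6a2 +11.9 kb (chr8:92972802-92973160) in an exon, had a peak in Young Bleo 3 and 4 with 17 and 12 summit fragments and in no other list. Prox1 +44.2 kb was called in Young Bleo 1 and 3 with 12 and 13 fragments, and Nr2f2 -455.9 kb in Young Bleo 3 and 4 with 10 and 14. The Pdpn region, Pdpn +36.7 kb (chr4:143262681-143263139, intergenic), was called in Young Bleo 3 with 17 and in Aged Bleo 1 with 11 fragments. Young Bleo 3 called 36 of the 43 member regions, the most of any list, and was among the 3 lists with the most peaks. None of these differences passed the test.

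Among aged mice, bleomycin differed at Nr2f2. Nr2f2 +9.5 kb (chr7:70350871-70351304), beyond the 3′ end of the gene, had 14, 22, 20, 15 and 12 summit fragments in Young Sham 1 to 5 and 15, 20, 16 and 17 in Aged Sham 1 to 4. Young Bleo 2 and 3 called it with 18 and 21, and no Aged Bleo list called it. All sham lists therefore called the region, and 2 of 9 bleomycin lists did so (p = 0.00226, Fisher's exact test, adjusted p = 1.0). It was the only member region called less often in Aged Bleo than in Aged Sham (0 of 5 against 4 of 4 lists, p = 0.00794, Fisher's exact test, 2.33% of members against 0.410% of all regions), and 0 were called more often (0.475% of all regions). This call did not pass with a fold enrichment of at least 5 (p = 0.167, Fisher's exact test) or with the same number of peaks per list (p = 0.444). Without the 3 shortest lists it stood at 0 of 4 against 2 of 2 lists, with the smallest p that these sizes allow (0.0667, Fisher's exact test), so no region could pass there. In the 9 bleomycin against the 9 sham lists, it was the 1 member region called less often (2.33%, against 1.23% of all regions), with 0 more often (2.17% of all regions). Over both directions, this count of 1 became 3 without Aged Sham 1 or without the 3 shortest lists, with Gja5 +12 kb also less often and Prox1 -11.1 kb more often in bleomycin lists. It became 2 without any of 10 other single lists, where the second region was Gja5 +12 kb, less often, for 4 of them, and Prox1 -11.1 kb or Gja4 +10.1 kb, more often, for the other 6. Nr2f2 +9.5 kb passed in each of these. Of all regions, 3.40% were called in either direction with all lists, 4.45% without Aged Sham 1, 4.47% without the 3 shortest lists and 3.96% to 6.09% without any of the 10, so a rise was also seen over all regions.

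The direction at Nr2f2 +9.5 kb was the same in every lane. In lane 6, Aged Sham 4 called it and 0 of 5 Aged Bleo lists did. In lane 7, 3 of 3 Aged Sham and 2 of 3 Young Bleo lists called it, and in lane 8, 5 of 5 Young Sham lists did and Young Bleo 4 did not. The peaks were weak, with a fold enrichment of 3.78 to 6.27 that lies low in each list. With a fold enrichment of at least 5 required, the p of the bleomycin comparison was 0.206, and with the same number of peaks per list it was 1.0.

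Aged Bleo differed from Young Sham at 3 member regions, all called less often (6.98%, against 3.01% of all regions): Gja5 +12 kb, Bmx +24.6 kb and Nr2f2 +9.5 kb. None was called more often (0.201% of all regions). With the same number of peaks per list, Bmx +24.6 kb alone passed (2.33%, against 1.16% of all regions), and Gja5 +12 kb (p = 0.444, Fisher's exact test) and Nr2f2 +9.5 kb (p = 1.0) did not. With a fold enrichment of at least 5, Nr2f2 +9.5 kb did not pass either (p = 1.0, Fisher's exact test). With peaks covering 50% of the region, 5 members were called less often (11.6%, against 5.80% of all regions), these 3 among them. Compared with Young Bleo, Aged Bleo had 1 member region called less often, Bmx +24.6 kb (1 of 5 against 4 of 4 lists, p = 0.0476, Fisher's exact test, 2.33% of members against 2.44% of all regions), and 0 called more often (0.123%). This call is lost (p = 0.143, Fisher's exact test) without any Young Bleo list or any of Aged Bleo 1, 2, 4 and 5, and no member passed without the 3 shortest lists. Over all member regions, the share of lists with a peak was lower in aged than in young lists for 27, equal for 13 and higher for 3, with a median difference of -22.2 percentage points against 0.0 over all regions, of which 47.3% were lower and 7.70% higher.

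Called regions were also counted per gene. Bmx had 3.11 ± 0.601 called regions in young and 1.67 ± 0.866 in aged lists (SD, n = 9 each, p = 0.00177, exact permutation test, adjusted p = 0.136 over 17953 genes). Young Sham 1 to 5 had 4, 3, 4, 3 and 2 of its 4 regions, every Young Bleo list 3, Aged Sham 1 to 4 had 0, 2, 1 and 3, and Aged Bleo had 2 except for 1 in Aged Bleo 4. Gja5 had 3.33 ± 1.0 in young and 2.0 ± 0.50 in aged lists (p = 0.00633, exact permutation test). Gja4 had 5.22 ± 0.667 and 3.33 ± 2.0 (p = 0.0265, exact permutation test), and Nr2f2 2.33 ± 0.707 and 1.56 ± 0.527 (p = 0.0326, exact permutation test). Of the regions counted, Gja5 -34.4 kb and Gja5 +12 kb had a peak only in lists of lane 8, all of them young. Bmx +57.5 kb, Nr2f2 -258.8 kb and Nr2f2 -455.9 kb also had a peak in young lists alone. Such regions were kept through young lists and could only add to the young counts. Keeping only regions in at least 3 lists left out Bmx +57.5 kb and every Nr2f2 region with a peak in 2 lists. The call of Bmx was then kept and that of Nr2f2 was lost. Gja5 was not tested without Gja5 -34.4 kb and Gja5 +12 kb.

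Thus 4 of 10 genes had fewer called regions in aged lists at an unadjusted p of at most 0.05, a rule met by 12.3% of all genes in either direction, and none passed adjustment. Col15a1 (9.11 ± 1.17 in young and 7.56 ± 3.0 in aged lists, p = 0.199, exact permutation test), Edn1 and Prox1 did not pass. In exact permutation tests without the 3 shortest lists, Bmx (p = 0.0156) and Gja5 (p = 0.0274) passed and Gja4 (p = 0.194) and Nr2f2 (p = 0.0659) did not, and with the same number of peaks per list none of these 4 genes passed (Bmx had the smallest p, 0.0734). Under that setting Nr2f2 turned to 0.111 more regions in aged than in young lists (p = 1.0, exact permutation test), and Prox1 was the 1 member that passed, with fewer regions in aged lists. The call of Nr2f2 was also lost with either stricter peak threshold, with regions in at least 3 lists, with peaks covering 50% of the region, and without Young Sham 1, Young Bleo 3, or Aged Bleo 1, 2, 4 or 5, each in turn. It was not the only call lost with the stricter thresholds. Of the 4 calls, 2 were lost with a -log10 q of at least 5 and 3 with a fold enrichment of at least 5. Between bleomycin and sham lists, 0 of the 10 genes passed, against 3.95% of all genes.

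**Figure D4:**
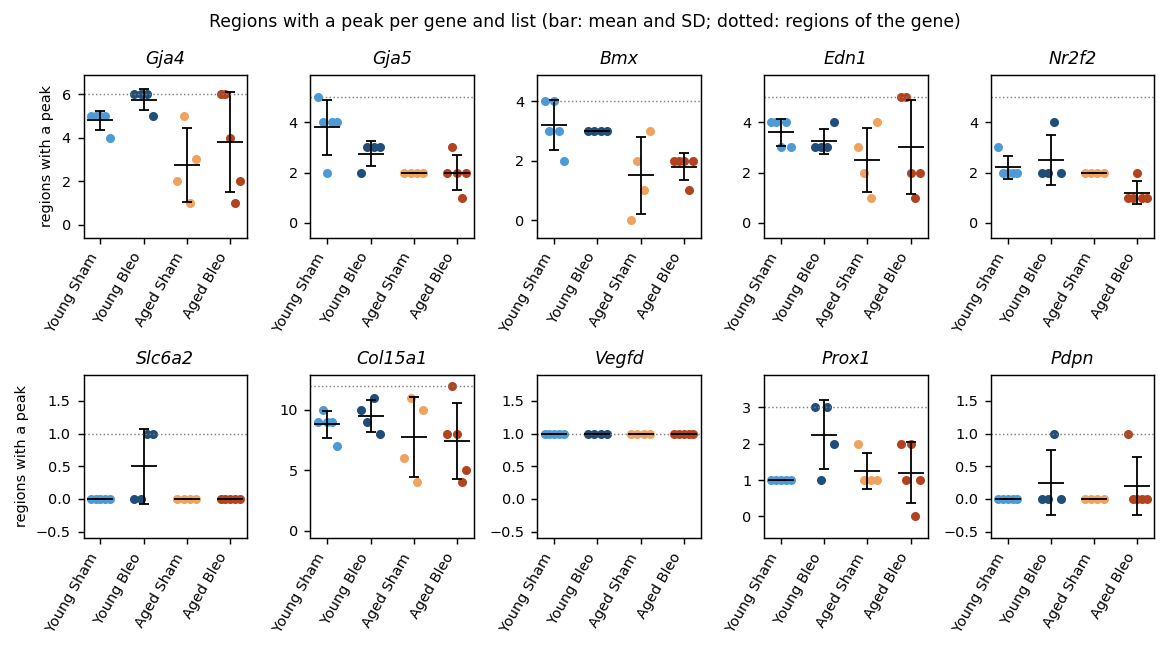
Number of regions with a peak in each list for the 10 genes (dots, by group; bar and whiskers, mean and SD; dotted line, the number of regions of the gene). Every Young Bleo list had 3 Bmx regions with a peak and every Aged Sham list had 2 Gja5 regions with a peak, and Vegfd had its region in every list.

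Strength was compared for the 7 member regions with a peak in all 18 lists, as the percentile of a region's fold enrichment among the 17432 regions that every list called, tested with limma over all of them. Nr2f2 -1 kb was the only member that passed an adjusted p under 0.05. Its percentile in Young Sham 1 to 5 was 57, 53.7, 59.6, 60.2 and 75.0, in Young Bleo 66.7, 63.6, 55.8 and 65.7, in Aged Sham 68.9, 70.7, 75.7 and 65.8, and in Aged Bleo 71.0, 74.6, 76.8, 89.3 and 80.6. Every Aged Bleo list lay above all Young Bleo lists and above all Young Sham lists except Young Sham 5. The region was 17.4 points (SE 4.0) higher in Aged Bleo than in Young Sham (limma, adjusted p = 0.0144), a contrast in which 10.6% of all shared regions passed.

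The pooled aged lists were 12.4 points (SE 3.0) above the young ones at Nr2f2 -1 kb (limma, adjusted p = 0.0329), where 3.91% of shared regions passed. The highest value, 89.3, was that of Aged Bleo 4, the shortest list, and this region rested on 159 fragments there, its fewest. Without the 3 shortest lists the difference from Young Sham was 14.7 points (adjusted p = 0.0391) and the age difference 9.98 points (adjusted p = 0.162). The age call was also lost without any of 10 single lists, with adjusted p of 0.0525 to 0.0717. It was lost too with log2 fold enrichment minus the list median as the measure, where 0 members passed. With the percentile among all peaks of the list, or of -log10 p, 1 of the calls at this region was lost and the other kept. With the sequencing lane as a term, the difference from Young Sham was 27.0 points and did not pass (adjusted p = 0.592). With this term, 0 of the 17432 shared regions passed in any contrast by limma, and at an unadjusted p under 0.05 the difference from Young Sham had 1414 regions.

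The other 6 shared regions did not pass in any contrast. Gja5 -6.9 kb (chr3:97025193-97025870), upstream of Gja5, had percentiles of 64.9 to 79.1 in Young Bleo and 35.3 to 65.3 in Young Sham, a difference of 21 points (SE 8.75, limma adjusted p = 0.222). It spread from 25.3 to 69.9 in Aged Bleo and from 33.7 to 65.4 in Aged Sham. Its summit held 36 to 65 fragments in Young Sham, 59 to 88 in Young Bleo, 28 to 55 in Aged Sham and 17 to 73 in Aged Bleo. Edn1 +8 bp was 14.5 points (SE 4.85) higher in Young Bleo than in Young Sham (adjusted p = 0.128), with values of 50.6 to 64.1 against 35.2 to 51.8. Upstream of Col15a1, its strongest region, Col15a1 -56.2 kb (chr4:47151517-47152176), held 43 to 65 fragments in Young Sham, 39 to 53 in Young Bleo, 47 to 59 in Aged Sham and 19 to 88 in Aged Bleo. It was 13.6 points higher in aged than in young lists (SE 5.47, limma adjusted p = 0.154), and for Col15a1 -45.8 kb the aged minus young difference was -11.6 points (SE 4.34, limma adjusted p = 0.128). Gja4 -36 bp and the intronic Vegfd +8.6 kb (chrX:164381818-164382404) lay at 58.2 to 76.9 and 45.5 to 78.0 over all lists. The Vegfd region, the only one of that gene, held 43 to 50 fragments in Young Sham, 48 to 63 in Young Bleo, 35 to 61 in Aged Sham and 26 to 55 in Aged Bleo.

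In the remaining contrasts, 0 members passed in strength, against 1.21% of shared regions between Aged Sham and Young Sham, 2.75% between Young Bleo and Young Sham, 0.344% between Aged Bleo and Aged Sham, 0.155% between Aged Bleo and Young Bleo and 6.17% between bleomycin and sham.

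**Figure D5:**
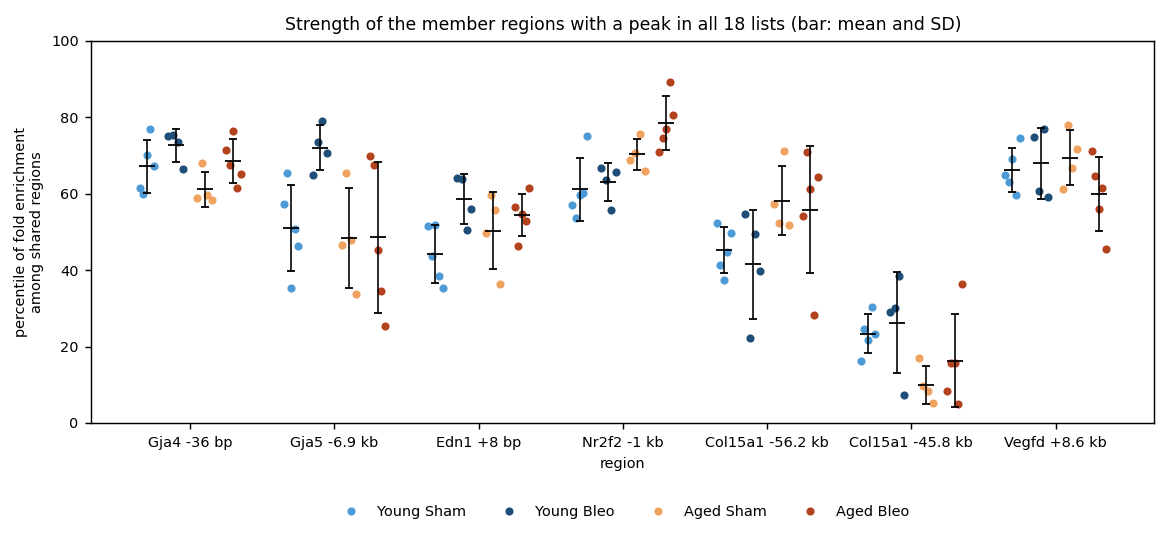
Percentile of fold enrichment among the 17432 shared regions for the 7 member regions called in every list (dots, lists by group; bar and whiskers, mean and SD). At Nr2f2 -1 kb the Aged Bleo lists lie at 71.0 to 89.3 and the Young Sham lists at 53.7 to 75.0.

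The wider marker lists, which hold these genes too, were described by the same rules. In the vessel-type lists below, the share of regions with a peak in all 18 lists, which cannot be called, ran from 10.7% (lymphatic) to 34.7% (aerocyte). It was 36.8% of all regions, so these shares too are not on an equal footing. Of 134 regions at 19 arterial genes, 10 were called less often in aged than in young lists (7.46%, against 4.87% of all regions) and 0 more often, with a median difference of -11.1 percentage points against 0.0. The smallest p was at Sox17, an arterial transcription factor, where 0 of 9 aged and 7 of 9 young lists had a peak (chr1:4516614-4516993, p = 0.00226, Fisher's exact test). In Young Bleo against Young Sham, 9 arterial regions were called more often (6.72%, against 3.98%) and 2 less often (1.49%, against 1.96%), with the smallest p at Ltbp4 (4 of 4 against 0 of 5 lists, p = 0.00794, Fisher's exact test). Of 81 venous regions, 4 were called less often in aged lists (4.94%, against 4.87%), with the smallest p at Ptgis, the prostacyclin synthase gene (0 of 9 against 8 of 9 lists, p = 0.000411, Fisher's exact test). The Sox17 and Ptgis regions were kept through young lists alone, so they could only be called less often in aged lists.

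Of 28 regions at 9 lymphatic genes, 6 were called more often in Young Bleo than in Young Sham (21.4%, against 3.98% of all regions), of which Prox1 -11.1 kb was 1, and 1 less often (3.57%, against 1.96%). The 1 called less often was at Mmrn1, a lymphatic extracellular protein, with 0 of 4 Young Bleo and 5 of 5 Young Sham lists (p = 0.00794, Fisher's exact test). In Aged Bleo against Aged Sham, 0 lymphatic regions were called more often and 1 less often, the same Mmrn1 region (1 of 5 against 4 of 4 lists, p = 0.0476, Fisher's exact test), against 0.475% and 0.410% of all regions. Whether the difference with bleomycin itself differed between young and aged mice was not tested for these regions. In the 9 bleomycin against the 9 sham lists, 2 were called more often (7.14%, against 2.17% of all regions) and 1 less often (3.57%, against 1.23%), Mmrn1 again, at 1 of 9 against 9 of 9 lists (p = 0.000411, Fisher's exact test). In aged against young lists, 0 lymphatic regions were called, against 4.87% of all regions less often and 0.127% more often, and the median difference was -22.2 percentage points against 0.0 over all regions. Of 38 regions at systemic or peribronchial venous genes, 3 were called less often in aged lists (7.89%, against the same 4.87%), with the smallest p at Ebf1 (p = 0.0152, Fisher's exact test). General capillary genes had 10 of 81 regions called less often in aged lists (12.3%) and aerocyte genes 3 of 49 (6.12%), also against 4.87%, so the arterial share was not set apart from theirs by any test. Markers of other cells were described too, as the sort could still hold some of them and the paper reports no test of purity after it. Markers of type 1 epithelium had 16 regions. Of these 1, at Rtkn2, was called less often in aged than in young lists (6.25%, against 4.87% of all regions), at 1 of 9 against 7 of 9 lists (p = 0.0152, Fisher's exact test). It was also called less often in Aged Bleo (0 of 5 lists) than in Young Sham (4 of 5) and Young Bleo (3 of 4, p = 0.0476 each, Fisher's exact test). A second Rtkn2 region was called more often in bleomycin than in sham lists (5 of 9 against 0 of 9, p = 0.0294, Fisher's exact test) and in Young Bleo than in Young Sham (3 of 4 against 0 of 5, p = 0.0476). Fibroblast and mural markers had 6 and 12 regions, 0 of which differed between the 9 aged and the 9 young lists. Between single groups, 1 mural region, at Myh11, was called less often in Aged Sham than in Young Sham (0 of 4 against 4 of 5 lists), and likewise in Aged Bleo than in Young Sham (0 of 5 against 4 of 5 lists), and 1 fibroblast region, at Pdgfra, less often in Aged Bleo than in Young Bleo (0 of 5 against 3 of 4 lists), each with p = 0.0476 (Fisher's exact test). In Young Bleo against Young Sham, the same Myh11 region was called less often (0 of 4 against 4 of 5 lists) and another Myh11 region more often (4 of 4 against 1 of 5 lists), again with p = 0.0476 each (Fisher's exact test). Leukocyte markers had 1 region, called in all 18 lists. The part of these cells in the differences above was not tested.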

How the data were processed

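ATAC-seq peak lists of 18 samples were used, with groups and replicate numbers from the labels. The members and the marker lists were chosen with earlier results of these data known. Per the paper's methods and the labels, the authors mapped reads to mm10 with BWA, removed duplicates and ran MACS2 on every library alone, keeping peaks at an FDR of 1%. The fold enrichment ratio deposited by the authors is the summit signal over the local background of that library. Deposited significance, as -log10 p and -log10 q, comes from MACS2's Poisson test, and the deposited score and summit offset are MACS2's own. None is scaled between libraries, and read counts, used by the authors with DiffBind, are not in the lists used here.

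Nuclear peaks (autosomes, X and Y) were merged at an overlap of 1 bp, which left out 19 others. Summit fragments follow from fold enrichment and -log10 p with a pseudocount of 1, and at least 99.989% of the peaks of each list with a -log10 p up to 250 gave a whole number (tolerance 0.001 in -log10 p). RefSeq annotation of GRCm38.p6 (45756 transcripts) was used. Presence was compared by two-sided Fisher's exact tests, regions per gene by exact permutation of all 48620 splits, and strength by limma 3.58.1 in R 4.3.3 with Benjamini-Hochberg adjustment. The tests were checked on simulated data. Genes described are the 10 members and, for the wider lists, the gene of the region with the smallest p in the comparisons described. Every promoter region, every region past a test and the strongest region of each gene were to be described, and the rest by counts. Likeness to other genes was measured by Pearson's r of the share of called regions. Alternatives were stricter peak thresholds (-log10 q of at least 5, fold enrichment of at least 5), equal list lengths (21050 peaks), regions in at least 3 lists, peaks covering 50% of the region, nearest TSS only, other measures of strength, lane as a term, a replicate block and each list left out. The sequences of 2 regions that passed a test are not reported here. Leaving out the 3 shortest lists was added after the data had been seen.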

Additional observations from a re-analysis of the deposited data

Results flagged for a closer look

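The Gja4 promoter region in Aged Sham 2 stood apart from the other Aged Sham lists in strength, at the 67.9th percentile among shared regions against 58.2 to 59.6 in the other 3 (gap over range 0.856, above Dixon's critical value for 4 samples). It was the only one of 32 groups of values that stood apart, and chance gives about 1 in 20.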

How the results depend on the processing

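The counts are of member regions with a two-sided Fisher's exact p of at most 0.05 in either direction unless said otherwise, each with the share of all regions called by the same rule under the same setting, and the causes of the changes were not tested. With all lists and peaks, all regions gave 5.17% for Aged Sham v Young Sham, 5.94% for Young Bleo v Young Sham, 3.21% for Aged Bleo v Young Sham, 0.885% for Aged Bleo v Aged Sham, 2.57% for Aged Bleo v Young Bleo, 4.99% for aged v young and 3.40% for bleomycin v sham. Requiring a -log10 q of at least 5 gave 3 for Aged Sham v Young Sham (all regions 5.21%) and 3 for aged v young (5.20%). A fold enrichment of at least 5 gave 3 for Aged Sham v Young Sham (4.19%), 0 for Aged Bleo v Aged Sham (0.910%), 0 for Aged Bleo v Young Bleo (2.08%) and 3 for aged v young (3.74%). An equal number of peaks per list gave 3 for Aged Sham v Young Sham (1.72%), 1 for Young Bleo v Young Sham (4.02%), 1 for Aged Bleo v Young Sham (1.80%), 2 for aged v young (1.09%) and 0 for bleomycin v sham (2.61%). The 1 region for Aged Bleo v Aged Sham was then Col15a1 +47.8 kb, called more often in Aged Bleo, in place of Nr2f2 +9.5 kb. Peaks covering 50% of the region gave 3 for Aged Sham v Young Sham (6.40%), 6 for Young Bleo v Young Sham (6.96%), 5 for Aged Bleo v Young Sham (5.94%), 2 for Aged Bleo v Young Bleo (5.69%), 3 for aged v young (8.41%) and 2 for bleomycin v sham (3.84%). Without the 3 shortest lists the counts were 2 for Aged Sham v Young Sham (2.10%), 0 for Aged Bleo v Aged Sham (where the smallest p that 4 against 2 lists allow is 0.0667, so no region could pass), 0 for Aged Bleo v Young Bleo (0.414%), 3 for aged v young (3.73%) and 3 for bleomycin v sham (4.47%). At Gja4 +6.9 kb the difference turned to 5.0 percentage points higher in Aged Sham than in Young Sham with a fold enrichment of at least 5 (p = 1.0, Fisher's exact test), and to 22.2 higher in aged lists with the same number of peaks (p = 0.471, Fisher's exact test).

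With single lists left out in turn, the counts ranged from 1 to 4 for Aged Sham v Young Sham (all regions 1.15% to 2.15%), 0 to 2 for Young Bleo v Young Sham (1.69% to 3.08%), 3 to 4 for Aged Bleo v Young Sham (3.73% to 5.86%), 0 to 1 for Aged Bleo v Young Bleo (0.414% to 0.858%) and 1 to 3 for bleomycin v sham (3.91% to 6.09%), and were 1 for Aged Bleo v Aged Sham (0.104% to 0.270%) and 6 for aged v young (5.29% to 8.21%) throughout. The bleomycin v sham count, over both directions, was 3 without Aged Sham 1 and 2 without Young Sham 2 or 3, Young Bleo 2 or 4, Aged Sham 2, 3 or 4, or Aged Bleo 2, 4 or 5.

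The replicate block, which pairs same-numbered lists by an exact McNemar test, gave 0 in the 5 comparisons between 2 groups, where its smallest possible p is above 0.05, and 1 each for aged v young (1.32% of all regions) and bleomycin v sham (0.826%). Same-numbered lists did not deviate together (correlations of -0.196 to 0.174), so the numbers pair nothing here. In strength, the replicate block changed no count.

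For called regions per gene (exact permutation p of at most 0.05), the aged v young count of 4 genes (12.3% of all genes) became 2 with a -log10 q of at least 5 (13.4%), 1 with a fold enrichment of at least 5 (9.72%), 1 with the same number of peaks (Prox1, 2.72%) and 2 without the 3 shortest lists (5.76%), and ranged from 3 to 4 with single lists left out (11.2% to 19.4%). With the same number of peaks Nr2f2 differed by 0.111 regions in the opposite direction. The bleomycin v sham count of 0 became 1 with regions in at least 3 lists (Nr2f2, fewer in bleomycin lists, 4.06% of all genes) and 1 without the 3 shortest lists (Prox1, more, 5.68%), and 0 to 1 with single lists left out (4.26% to 8.07%). In strength, the aged v young count of 1 (3.91% of shared regions) was 0 with log2 fold enrichment (3.56%), 2 with the percentile of -log10 p (5.97%), 0 without the 3 shortest lists (0.792%) and 0 to 2 with single lists left out (1.72% to 6.13%). With the percentile among all peaks of the list it was 1 (7.58%). Under that measure and the percentile of -log10 p, 1 of the 2 calls at Nr2f2 -1 kb was lost. The counts did not fall there, so another member region passed. Lane as a term gave 0 for aged v young and for Aged Bleo v Young Sham, as it did for all 17432 shared regions. The percentile of -log10 p gave 1 of 7 members for bleomycin v sham (14.3%), below the 26.6% of all shared regions. The 10 lists whose loss ended the age call at Nr2f2 -1 kb were Young Sham 1, 2, 3 and 4, Young Bleo 2 and 3, Aged Sham 1, 2 and 3, and Aged Bleo 5.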

Other observations

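The genes whose share of called regions over the 18 lists was most like that of 3 members, Slc6a2, Pdpn and Prox1, are given as a description, among 6764 genes with at least 3 regions. For Prox1, with 3 regions, they were E130006D01Rik (Pearson r = 0.748) and Lrp8 (r = 0.726). For Slc6a2 they were Mat2b (r = 0.834) and Mesd (r = 0.820), and for Pdpn 4931429L15Rik (r = 0.884) and Tcf7l2 (r = 0.882). Slc6a2 and Pdpn have 1 region each with a peak in 2 lists, so these values rest on those 2 lists, and the lists that all genes share differ in their number of peaks.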
